A study of Mus musculus with 308 samples.

Results

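The thioredoxin system of the mouse was followed here through 9 genes: Txn1, Txnrd1, Txnrd2, Txnip, Srxn1, Prdx1, Prdx2, Prdx5 and Prdx6. A probe set, the group of array probes that together measure a transcript, was taken when its only gene symbol in the probe gene table was one of these names. This gave 16 of the 45141 probe sets on the array, in 7 of the 9 genes listed and of the 17097 genes named by a single symbol. Prdx5 and Prdx6 had no probe set by this rule and were not analysed here. Txnrd2 and Srxn1 had 4 probe sets each, Txnip, Prdx1 and Prdx2 had 2 each, and Txnrd1 and Txn1 had 1 each. A gene is represented by its brightest probe set, by mean level on the arrays, unless another is named, and probe sets of a gene share their target and are not replicates.

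The series measured RNA from 7 tissues of C57BL/6 mice on 308 Affymetrix arrays: jejunum, kidney, mesenteric lymph node, inguinal lymph node, spleen, brain and blood. All dosed mice received their agent once daily for 10 days, and tissue was collected 12 h after the last dose. The vehicle group received 0.8% hydroxypropyl methylcellulose. The DMF100 and DMF179.2 groups received dimethyl fumarate (DMF) at 100 and 179.2 mg/kg. The MEF79.2 group received 79.2 mg/kg of monoethyl fumarate (MEF) as its Ca2+, Mg2+ and Zn2+ salts. The combination group (DMF100+MEF79.2) received DMF at 100 mg/kg together with these salts at 79.2 mg/kg. DMF is the methyl diester of fumaric acid and MEF its ethyl monoester. A sixth group is labelled Nav, a name that the sources used here do not explain. Each tissue had between 5 and 8 arrays per group. Values are log2 expression levels. By those values the tissues look normalized apart, and so a treatment is compared with vehicle within a tissue. In whole tissue, fewer cells of a type and less RNA per cell cannot be told apart.

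Thioredoxin is a small protein that reduces disulfide bonds in other proteins, and thioredoxin reductase restores it with electrons from NADPH. Txn1 and Txnrd1 encode the cytosolic pair and Txnrd2 the mitochondrial reductase. Peroxiredoxins remove hydrogen peroxide with electrons from thioredoxin, sulfiredoxin (Srxn1) repairs peroxiredoxins whose active cysteine has been over-oxidized, and Txnip binds thioredoxin and limits its activity. Txnrd1, Srxn1, Txn1 and Prdx1 are known targets of NRF2, a transcription factor that fumarate esters activate by modifying its inhibitor KEAP1.

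The 250 bases before the start site of Srxn1, Txnrd1 and Prdx1 are shown because these members have a known NRF2 link and because their windows held the searched letters; Txnip is shown beside them as the member that fell in 3 tissues. Sequences and start sites are those of RefSeq, build GRCm38.p6, written 5′ to 3′ on the strand of the gene, which is the plus strand for all 4. Capitals mark TGACNNNGC or TGAGNNNGC on either strand, a shortened form of the antioxidant response element to which NRF2 binds. TGAGNNNGC was added after the first search.
Srxn1, chr2:152105274-152105523: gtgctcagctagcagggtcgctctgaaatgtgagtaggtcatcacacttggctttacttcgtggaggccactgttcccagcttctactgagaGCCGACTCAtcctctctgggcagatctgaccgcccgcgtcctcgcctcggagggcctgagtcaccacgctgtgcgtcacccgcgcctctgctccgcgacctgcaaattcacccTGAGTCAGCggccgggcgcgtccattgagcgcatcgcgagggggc
Txnrd1, chr10:82858956-82859205: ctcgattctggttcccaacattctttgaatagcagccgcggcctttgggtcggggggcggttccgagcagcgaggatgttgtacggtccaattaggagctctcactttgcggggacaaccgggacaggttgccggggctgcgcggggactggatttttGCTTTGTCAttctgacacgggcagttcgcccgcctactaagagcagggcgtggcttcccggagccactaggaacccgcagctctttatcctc
Prdx1, chr4:116685349-116685598: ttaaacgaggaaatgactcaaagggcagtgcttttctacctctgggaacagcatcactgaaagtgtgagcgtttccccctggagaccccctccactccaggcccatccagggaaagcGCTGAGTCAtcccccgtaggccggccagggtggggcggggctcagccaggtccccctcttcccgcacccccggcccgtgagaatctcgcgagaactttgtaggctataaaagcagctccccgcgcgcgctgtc
Txnip, chr3:96557707-96557956: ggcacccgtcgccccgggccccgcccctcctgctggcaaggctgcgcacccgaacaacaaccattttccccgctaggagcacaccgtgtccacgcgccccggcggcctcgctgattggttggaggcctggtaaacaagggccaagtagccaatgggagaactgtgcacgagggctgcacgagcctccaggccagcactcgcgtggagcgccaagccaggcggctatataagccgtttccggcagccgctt

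The Srxn1 window held TGAGNNNGC 158 and 45 bases before the start site, Txnrd1 held TGACNNNGC 92 bases before the second of its 3 annotated start sites, and Prdx1 held TGACNNNGC 133 bases before its start site. With the 50 bases after each start site included, 3 of the 8 members with a RefSeq window held either form, against 30.76% of all 27025 genes, so a match sets the members little apart from other genes. Txn1, Txnrd2, Txnip, Prdx2 and Prdx5 held neither form. Of these, Txn1 rose under DMF179.2 in 5 tissues, Txnrd2 in 3 and Prdx2 in 1, while Srxn1, which held matches, fell in 1. TGACNNNGC was in 12.39% and TGAGNNNGC in 17.65% of the 32851 windows of 300 bases; the forms differ in a letter and cannot overlap in the same place and strand. CACGTG, a sequence called the E-box, was in 7.15% of all windows and in no member's window. Only these exact letters were searched, and variants of them were not counted.

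Under DMF179.2, at least 1 probe set passed the test in 25 of 49 gene and tissue pairs, 21 higher and 4 lower than vehicle. The test was limma's moderated test within a tissue, with p-values adjusted by Benjamini and Hochberg's method over all probe sets tested and a call under 0.05. In jejunum 6 of 15 tested member probe sets rose and 4 fell, where 29% of all tested probe sets were called. In kidney 7 of 15 rose and 2 fell (15.7% of all called), in mesenteric node 6 of 14 rose (7.24%), and in spleen 9 of 14 rose and 2 fell (31.3%). In inguinal node 4 of 13 rose (0.204%), in brain 1 of 13 (0.508%) and in blood 1 of 16 (0.859%). The members' share stood above the share of all probe sets by the widest ratio in inguinal node, and in jejunum and spleen the array as a whole was widely called as well.

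DMF100 gave 7 called pairs, 6 higher and 1 lower. They were in jejunum (1 of 15 probe sets, 0.834% of all called), kidney (5 rose and 2 fell of 15, 7.29%), mesenteric node (1 of 14, 1.66%) and inguinal node (2 of 13, 1.10%). No member was called under DMF100 in spleen (1.09%), brain (0.350%) or blood (0.208%), where 4, 2 and 6 member probe sets had an unadjusted limma p under 0.05. The combination also gave 7 called pairs, 6 higher and 1 lower, in jejunum (1 of 15 probe sets, 3.14%), kidney (6 rose and 1 fell of 15, 27.4%) and mesenteric node (4 of 14, 10.3%). It gave none in inguinal node (0.0425%), spleen (0.00844%), brain (0.303%) or blood (0%), with 7, 5, 2 and 6 member probe sets at an unadjusted limma p under 0.05.

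MEF79.2 gave 2 called pairs, Txnrd1 and Srxn1 in kidney, where 5 of 15 member probe sets rose and 12% of all were called. In the other tissues the limma test called no member, with 1 in jejunum, 4 in mesenteric node, 2 in inguinal node, 0 in spleen, 1 in brain and 1 in blood at an unadjusted p under 0.05. The shares of all probe sets called there were 0.0638, 4.31, 0.0170, 0, 0.337 and 0%. In spleen and blood, where limma called nothing at all under MEF79.2, 1067 and 2335 probe sets had an unadjusted p under 0.05.

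**Figure D1:**
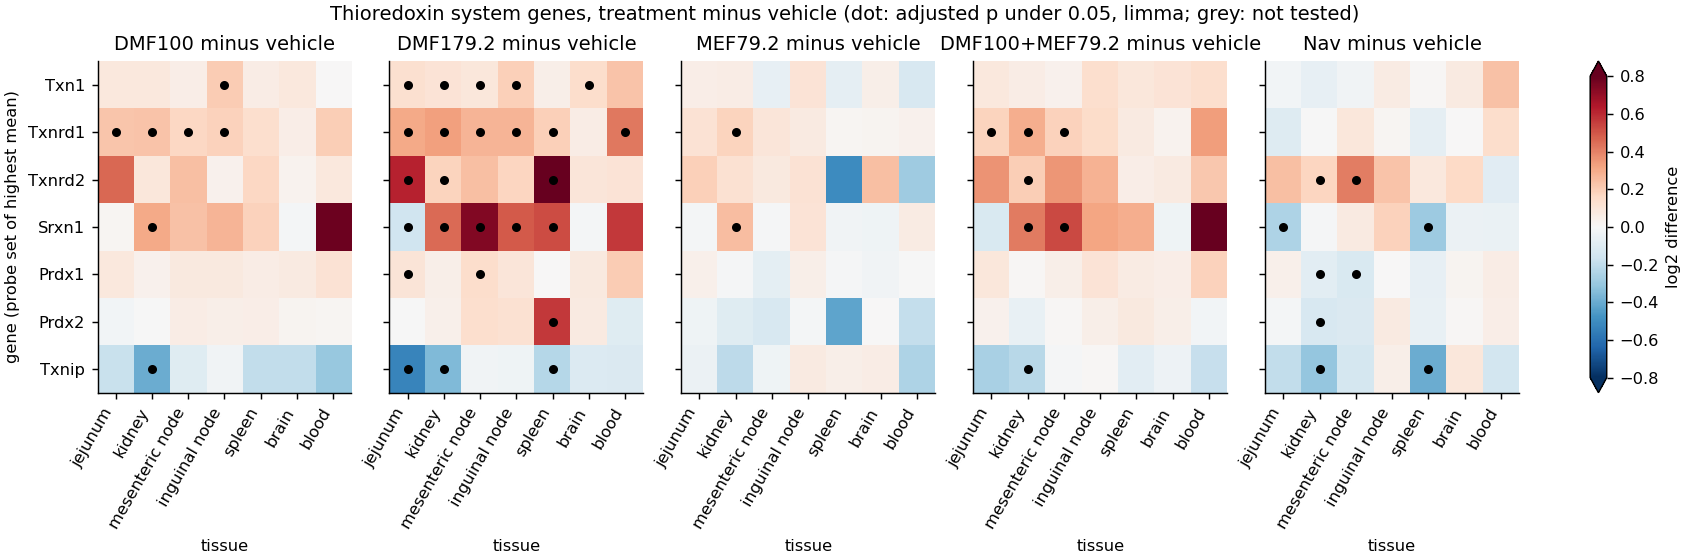
Log2 difference from vehicle (colour) for the 7 genes (rows) in the 7 tissues (columns), 1 panel for each treatment, with a dot where the main probe set was called by limma at an adjusted p under 0.05. Txnrd1 is dotted in 6 tissues under DMF179.2 and in 1 under MEF79.2, and the Txnip row is blue under DMF179.2 with dots in jejunum, kidney and spleen; colours saturate at 0.8.

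Txnrd1, the cytosolic reductase, rose under DMF179.2 in 6 of 7 tissues, by 1.14-fold to 1.34-fold. In kidney the lowest, median and highest vehicle levels were 12.02, 12.05 and 12.12 (n = 7), and under DMF179.2 they were 12.36, 12.39 and 12.43 (n = 8). All treated kidney arrays lay above all vehicle arrays, and the log2 difference was 0.33 ± 0.029 (SE, adjusted p = 2.11e-11). The kidney difference was 0.23 ± 0.029 (SE, adjusted p = 5.76e-07) under DMF100, 0.29 ± 0.029 (SE, adjusted p = 5.38e-10) under the combination and 0.18 ± 0.030 (SE, adjusted p = 0.000125) under MEF79.2, again with no overlap with vehicle.

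In jejunum, vehicle arrays ran 12.45, 12.62 and 12.72 (n = 8) and DMF179.2 arrays 12.78, 12.93 and 13.02 (n = 7), as lowest, median and highest level. The ranges did not overlap, nor did those of DMF100 and vehicle. The log2 difference was 0.30 ± 0.040 (SE, adjusted p = 1.04e-06) under DMF179.2, 0.22 ± 0.042 (SE, adjusted p = 0.00175) under DMF100 and 0.18 ± 0.039 (SE, adjusted p = 0.00811) under the combination, while the value under MEF79.2 was 0.12 ± 0.040 (SE, adjusted p = 0.25) and did not pass. The jejunum combination call was lost when only these groups were fitted (adjusted p = 0.0773 by limma).

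In the lymph nodes Txnrd1 rose under both DMF doses. Mesenteric vehicle arrays ran 10.74, 10.96 and 11.05 (n = 8) and DMF179.2 arrays 11.12, 11.19 and 11.32 (n = 8), without overlap; the difference was 0.27 ± 0.044 (SE, adjusted p = 0.000304), and under DMF100 it was 0.17 ± 0.044 (SE, adjusted p = 0.0382). Inguinal vehicle arrays ran 11.01, 11.07 and 11.18 (n = 8) and DMF179.2 arrays 11.24, 11.36 and 11.46 (n = 6), also apart, with a difference of 0.27 ± 0.045 (SE, adjusted p = 0.00126), and under DMF100 of 0.19 ± 0.041 (SE, adjusted p = 0.0161). The combination passed in the mesenteric node (0.19 ± 0.048 (SE, adjusted p = 0.0133)) and gave 0.14 ± 0.041 (SE, adjusted p = 0.246) in the inguinal node. When the groups compared were fitted alone, the mesenteric and inguinal DMF100 calls (adjusted p = 0.203 and 0.0569 by limma) and the mesenteric combination call (0.051) were lost. Repeated quantile normalization also ended the mesenteric DMF100 call (0.0662).

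Blood gave the highest Txnrd1 difference, from vehicle arrays at 9.02, 9.07 and 9.11 (n = 7) to DMF179.2 arrays at 9.37, 9.52 and 9.59 (n = 8). These ranges did not overlap, and the log2 difference was 0.42 ± 0.076 (SE, adjusted p = 0.00711). Under the combination blood arrays ran 9.14, 9.48 and 9.54 (n = 6), all above vehicle, but the difference of 0.33 ± 0.082 (SE, adjusted p = 0.359) did not pass. In spleen, vehicle arrays ran 10.97, 11.13 and 11.23 (n = 8) and DMF179.2 arrays 11.22, 11.30 and 11.52 (n = 8), which overlap, and the difference was 0.19 ± 0.050 (SE, adjusted p = 0.00477). In brain, vehicle arrays ran 11.22, 11.33 and 11.43 (n = 8) and DMF179.2 arrays 11.24, 11.40 and 11.46 (n = 8), and no treatment passed; the 95% interval under DMF179.2 was -0.0069 to 0.12.

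**Figure D2:**
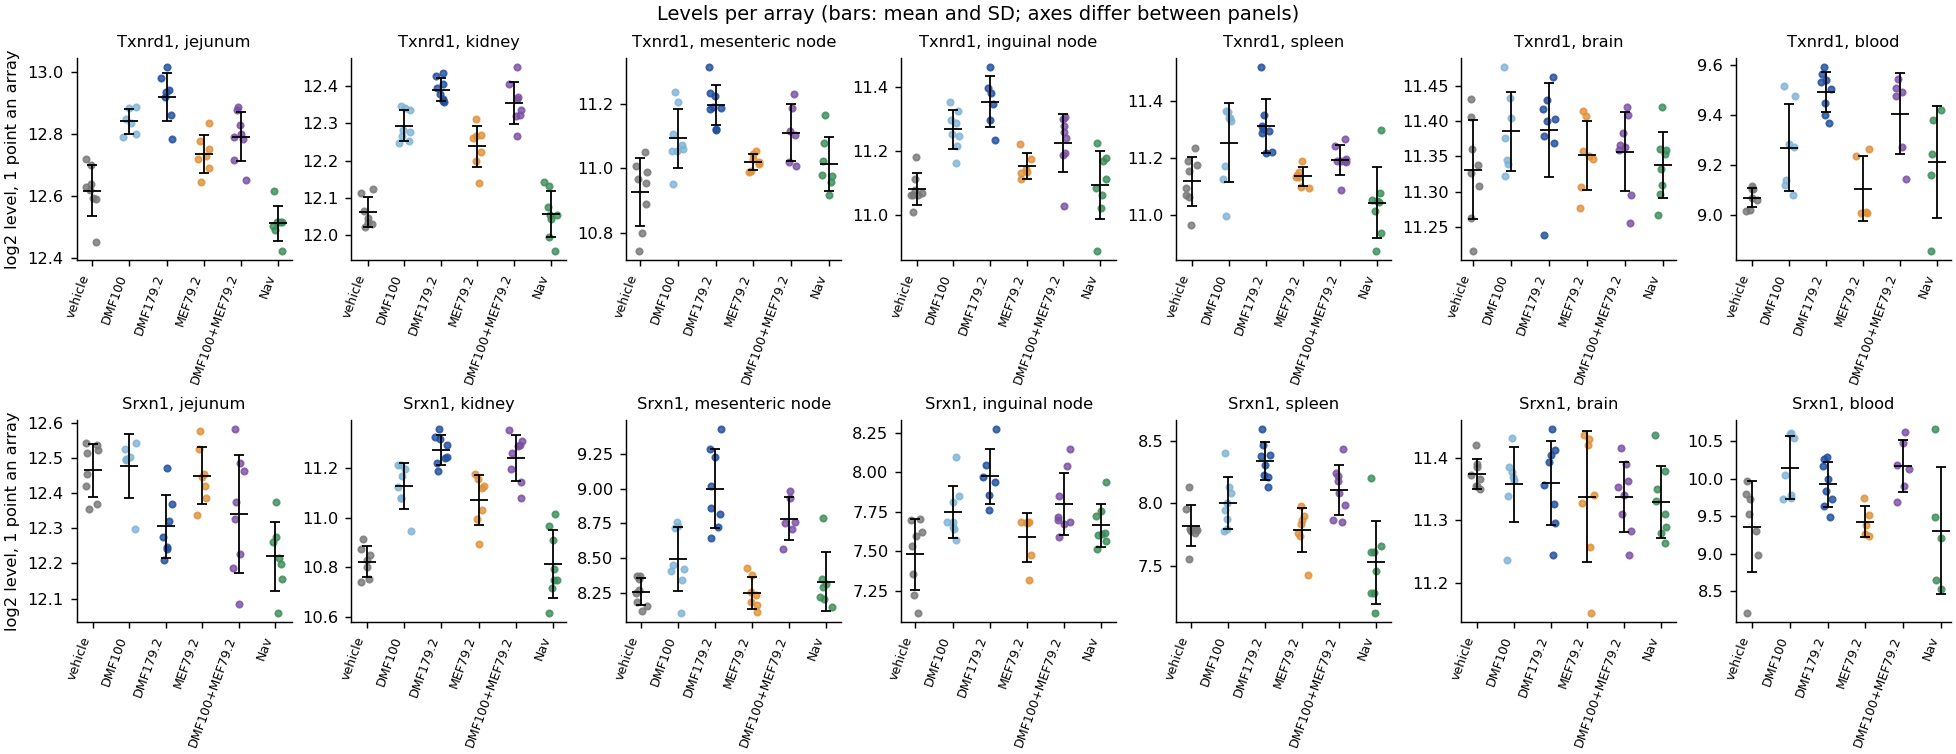
Log2 level of Txnrd1 (top) and Srxn1 (bottom) on every array, by treatment group (horizontal axis) in each tissue; bars give the mean and SD, and vertical axes differ between panels. Kidney DMF179.2 arrays lie above every vehicle array for both genes, brain groups overlap, and Srxn1 in jejunum has DMF179.2 arrays low rather than high.

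The size of the Txnrd1 response differed between tissues. The F test of the design, which fits 1 variance per probe set over all tissues, gave an adjusted p of 2.75e-05 for DMF179.2 and 0.000522 for the combination, against 0.505 for DMF100 and 0.336 for MEF79.2. On simulated data with each tissue's own spread that test made 52 false calls among 101, so its p-values cannot be relied on alone here. An F test built from limma's fits of each tissue, which keeps each tissue's own variance, made 6 false calls among 55; this own-variance test was added after that result, and a difference between tissues is stated below only where both tests pass. With the own-variance test the Txnrd1 adjusted p was 1.31e-06 for DMF179.2 and 1.02e-05 for the combination. Over the 16206 probe sets tested in every tissue, the first test called 2.73, 31.5, 7.97 and 14.6% (in the order DMF100, DMF179.2, MEF79.2, combination), and the own-variance test 2.26, 29.1, 5.01 and 18.2%.

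Txn1, the cytosolic thioredoxin itself, rose by less. Under DMF179.2 it passed in 5 tissues, with log2 differences of 0.13 ± 0.032 (SE, adjusted p = 0.00371) in jejunum, 0.11 ± 0.030 (SE, adjusted p = 0.00832) in kidney and 0.089 ± 0.028 (SE, adjusted p = 0.0442) in mesenteric node. In inguinal node vehicle arrays ran 11.87, 11.98 and 12.07 (n = 8) and DMF179.2 arrays 12.09, 12.19 and 12.23 (n = 6), without overlap, and the difference was 0.19 ± 0.037 (SE, adjusted p = 0.00953). DMF100 arrays of that node also lay above vehicle (0.21 ± 0.034 (SE, adjusted p = 0.00121)). In brain the DMF179.2 difference was 0.14 ± 0.030 (SE, adjusted p = 0.0156), from vehicle arrays at 11.79, 11.87 and 11.98 (n = 8) to treated arrays at 11.96, 12.02 and 12.10 (n = 8), which overlap. In spleen and blood it was 0.047 ± 0.037 (SE, adjusted p = 0.34) and 0.23 ± 0.13 (SE, adjusted p = 0.429), and MEF79.2 and the combination passed in no tissue. With arrays centred on their medians the brain, inguinal and mesenteric DMF179.2 calls were lost (adjusted p = 0.0609, 0.0528 and 0.0937), although the log2 differences were then 0.14, 0.19 and 0.098. The same calls were lost when only the groups compared were fitted (0.0653, 0.111 and 0.116), as was the inguinal DMF100 call (0.0561). The brain and inguinal calls were also lost with the hybridisation controls as a covariate (0.113 and 0.0508), and the mesenteric call without the array of lowest correlation (0.0738).

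Txnrd2, the mitochondrial reductase, rose under DMF179.2 in jejunum, kidney and spleen. Jejunum vehicle arrays ran 5.27, 5.72 and 6.15 (n = 8) and DMF179.2 arrays 5.88, 6.50 and 6.55 (n = 7); they overlap, and the difference was 0.61 ± 0.14 (SE, adjusted p = 0.00194). Of its 4 probe sets, 3 rose in jejunum. In kidney the difference was 0.18 ± 0.060 (SE, adjusted p = 0.037) under DMF179.2 and 0.19 ± 0.060 (SE, adjusted p = 0.0135) under the combination, in 1 probe set each, and both calls were lost with the mean of its probe sets (adjusted p = 0.0885 and 0.274) and when only the groups compared were fitted (0.0885 and 0.0831). The DMF179.2 call was also lost without the filter (0.0636). In spleen vehicle arrays ran 5.48, 6.51 and 7.83 (n = 8) and DMF179.2 arrays 7.08, 7.46 and 7.82 (n = 8), with a difference of 0.92 ± 0.31 (SE, adjusted p = 0.0221) and 3 probe sets higher. The call on the main probe set was lost without vehicle replicate 1 (0.76, adjusted p = 0.0618). That on 1429972_PM_s_at was lost in 8 of 16 fits that left out 1 spleen array (adjusted p up to 0.0883, without DMF179.2 replicate 22) and without the filter (0.0689), and that on 1449097_PM_at was kept in all 16 (adjusted p up to 0.0083).

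Srxn1, the enzyme that repairs over-oxidized peroxiredoxins, rose under DMF179.2 in kidney, both lymph nodes and spleen. Kidney vehicle arrays ran 10.74, 10.83 and 10.91 (n = 7), DMF179.2 arrays 11.19, 11.27 and 11.36 (n = 8) and combination arrays 11.08, 11.27 and 11.35 (n = 8). Neither treated group overlapped vehicle, and all 4 probe sets rose in kidney under each of the 4 treatments with DMF or MEF. The main probe set changed by 0.45 ± 0.050 (SE, adjusted p = 8.28e-09) under DMF179.2, 0.42 ± 0.050 (SE, adjusted p = 3.58e-08) under the combination, 0.30 ± 0.050 (SE, adjusted p = 7.2e-05) under DMF100 and 0.25 ± 0.051 (SE, adjusted p = 0.00125) under MEF79.2. In the fourth probe set, 1425351_PM_at, the MEF79.2 call (adjusted p = 0.05, before rounding under the threshold) was lost under 5 of 9 alternative settings.

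The largest Srxn1 change among the called tissues was in mesenteric node, from vehicle arrays at 8.12, 8.26 and 8.37 (n = 8) to DMF179.2 arrays at 8.65, 8.94 and 9.43 (n = 8). The ranges did not overlap, and the difference was 0.74 ± 0.097 (SE, adjusted p = 9.37e-06), or 1.67-fold. The combination arrays, at 8.57, 8.76 and 8.98 (n = 6), also lay above vehicle (0.53 ± 0.10 (SE, adjusted p = 0.00236)), while DMF100 gave 0.23 ± 0.097 (SE, adjusted p = 0.229) and MEF79.2 -0.0085 ± 0.10 (SE, adjusted p = 0.976). In inguinal node vehicle arrays ran 7.11, 7.56 and 7.70 (n = 8) and DMF179.2 arrays 7.76, 7.95 and 8.27 (n = 6), with no overlap and a difference of 0.49 ± 0.096 (SE, adjusted p = 0.0104); that call was lost when these groups were fitted alone (adjusted p = 0.0801). In spleen vehicle arrays ran 7.55, 7.79 and 8.13 (n = 8) and DMF179.2 arrays 8.13, 8.34 and 8.60 (n = 8), overlapping, with a difference of 0.52 ± 0.11 (SE, adjusted p = 0.00128).

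Jejunum went the other way. Its Srxn1 vehicle arrays ran 12.36, 12.48 and 12.54 (n = 8) and its DMF179.2 arrays 12.21, 12.28 and 12.47 (n = 7), and the difference was -0.16 ± 0.057 (SE, adjusted p = 0.0334). A second probe set, 1419942_PM_at, fell by 0.18 on the log2 scale (adjusted p = 0.0431), while the other two gave -0.015 and 0.089 and did not pass. The call on 1419942_PM_at was lost without the filter (adjusted p = 0.0691), with centring (0.101) and with the hybridisation controls as a covariate, where its difference was -0.026 (0.88). The call on the main probe set was lost with arrays centred on their medians (adjusted p = 0.0999), with the mean of the probe sets (0.474) and with the hybridisation controls as a covariate (0.627); the signal of those controls in jejunum was 0.13 lower (log2) under DMF179.2 than in vehicle, and its part in the result was not tested. Blood vehicle arrays ran 8.21, 9.52 and 9.97 (n = 7) and combination arrays 9.69, 10.15 and 10.63 (n = 6); the differences of 0.79 ± 0.25 (SE, adjusted p = 0.213) under DMF100 and 0.81 ± 0.26 (SE, adjusted p = 0.565) under the combination were as large as any, with a wide spread, and did not pass. Under DMF179.2 the mean of the main probe set in blood was 9.93 against 9.36 in vehicle, which did not pass either. In brain the main probe set differed from vehicle by -0.036 to -0.014 under the 4 treatments. The Srxn1 response differed between tissues under DMF179.2 (adjusted p = 1.51e-06 by the limma F test and 1.66e-15 by the own-variance test), the combination (3.95e-05 and 6.02e-11) and DMF100 (0.00543 and 0.000428), and under MEF79.2 only by the own-variance test (0.748 and 0.0363).

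Of the peroxiredoxins, Prdx1 rose slightly under DMF179.2 in jejunum, from vehicle arrays at 13.08, 13.20 and 13.24 (n = 8) to 13.24, 13.29 and 13.34 (n = 7) (0.10 ± 0.030 (SE, adjusted p = 0.0101)), and in mesenteric node, from 11.80, 11.89 and 11.96 (n = 8) to 11.93, 12.02 and 12.12 (n = 8) (0.14 ± 0.035 (SE, adjusted p = 0.0114)). Both pairs of ranges overlap. Its second probe set, 1437014_PM_x_at, gave 0.012 and 0.029 there and did not pass. The levels of that probe set hardly varied, so it says little about the main one. Its median was 11.59 in both jejunum groups, and its lowest level was 9.84 in both mesenteric groups. The Prdx1 response to DMF179.2 differed between tissues (adjusted p = 0.00217 by the limma F test, 0.0115 by the own-variance test).

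Prdx2, the peroxiredoxin abundant in red cells, passed only in spleen among the DMF and MEF comparisons. Spleen vehicle arrays ran 10.98, 11.44 and 12.34 (n = 8) and DMF179.2 arrays 11.88, 11.97 and 12.44 (n = 8); the ranges overlap, and the difference was 0.57 ± 0.22 (SE, adjusted p = 0.0429), with 0.91 ± 0.33 (SE, adjusted p = 0.032) in the second probe set. Under MEF79.2 the spleen value was -0.42 ± 0.23 (SE, adjusted p = 0.992). The main probe set's call was lost in 10 of 16 fits that left out 1 spleen array, with adjusted p up to 0.0965 (without vehicle replicate 1), without the filter (0.0795) and with 1 probe set per gene (0.0508). The second probe set's call was lost in 6 of those 16 fits (adjusted p up to 0.074) and without the filter (0.0608). The own-variance test found no difference between tissues past the threshold for Prdx2 (0.106) or Txnrd2 (0.0836), where the F test gave 0.00529 and 0.0147.

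Red cell precursor genes moved with these members in spleen. Of 16 tested genes on a list of such markers, 11 rose under DMF179.2 and none fell, where 31.3% of all tested probe sets were called in either direction, and the median log2 difference of the list was 1.60 against 0.010 over all; the mean level of the list ran from 6.64 to 10.41 over vehicle arrays and from 9.69 to 10.93 over DMF179.2 arrays. Over the 47 spleen arrays, each taken relative to its group mean, Prdx2 followed this list with Pearson r = 0.973 and Spearman rho = 0.988, and Txnrd2 with r = 0.896 and rho = 0.919 (adjusted permutation p = 3.5e-05 for each over 7 relations, from the smallest p that 100000 permutations can give, 1e-05). Srxn1 gave r = 0.553 and rho = 0.472 (adjusted permutation p = 0.00191 and 0.0049), and Txnip r = -0.393 and rho = -0.397 (0.032 and 0.0219). Txnrd1, Txn1 and Prdx1 gave r of 0.177, 0.275 and -0.267, none past the threshold by permutation. Without the 2 arrays farthest from the median of the list, r was 0.975 for Prdx2, 0.888 for Txnrd2, 0.435 for Srxn1 and -0.341 for Txnip. The part of red cell precursors in the spleen results was not tested.

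**Figure D3:**
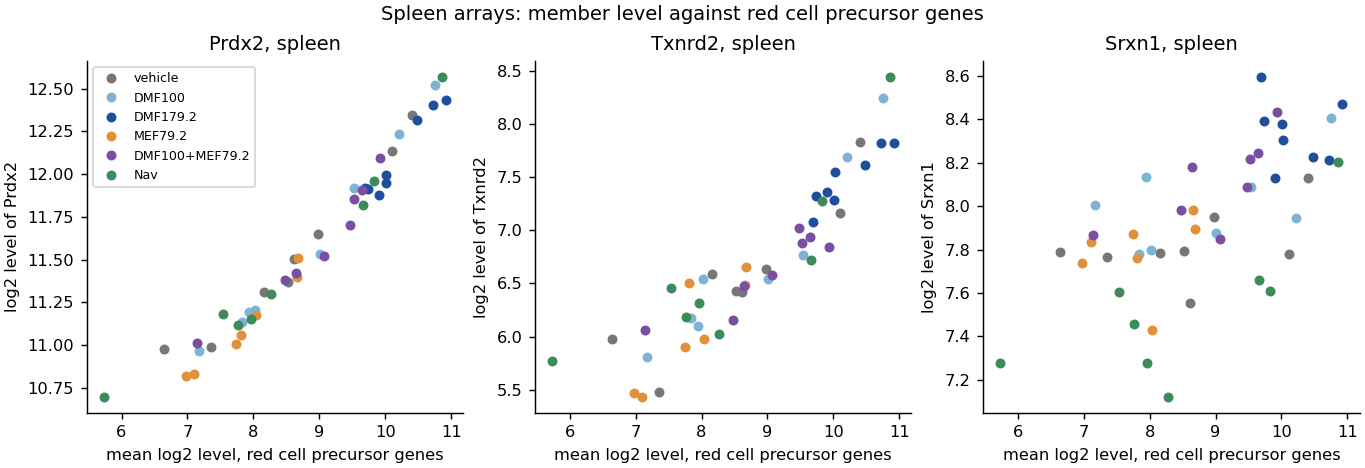
Log2 level of Prdx2, Txnrd2 and Srxn1 (vertical axes) against the mean log2 level of 16 red cell precursor genes (horizontal axis), 1 point for each spleen array, coloured by group. Prdx2 and Txnrd2 follow the list closely within groups (r = 0.973 and 0.896), and DMF179.2 arrays sit at its upper end, between 9.69 and 10.93.

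Txnip, which binds thioredoxin and restrains it, fell under DMF179.2 in jejunum, kidney and spleen. Jejunum vehicle arrays ran 11.97, 12.23 and 12.42 (n = 8) and DMF179.2 arrays 11.42, 11.76 and 12.03 (n = 7), with some overlap, and the difference was -0.53 ± 0.092 (SE, adjusted p = 9.67e-05). In the second probe set the ranges did not overlap, and it gave -0.88 ± 0.15 (SE, adjusted p = 6.87e-05), 0.542 times the vehicle level. In kidney vehicle arrays ran 11.76, 12.12 and 12.34 (n = 7) and DMF100 arrays 11.51, 11.73 and 11.86 (n = 8); the difference was -0.40 ± 0.087 (SE, adjusted p = 0.00248), and under DMF179.2 -0.35 ± 0.087 (SE, adjusted p = 0.00391). The second probe set also fell in kidney under DMF100 and DMF179.2. Those calls were lost without the filter (adjusted p = 0.0675 and 0.0684 by limma) and when only the groups compared were fitted (0.0969 and 0.107). In spleen vehicle arrays ran 12.33, 12.39 and 12.62 (n = 8) and DMF179.2 arrays 12.08, 12.17 and 12.40 (n = 8), with a difference of -0.23 ± 0.075 (SE, adjusted p = 0.0192), and of -0.63 ± 0.16 (SE, adjusted p = 0.00432) in the second probe set.

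The probe sets of Txnip disagreed on the combination in kidney. The main probe set fell (-0.22 ± 0.087 (SE, adjusted p = 0.0499)), a call at the threshold that 6 of 12 alternatives lost, and the second gave -0.0047 ± 0.15 (SE, adjusted p = 0.986). Under MEF79.2 no Txnip probe set passed in any tissue. Outside jejunum, kidney and spleen the main probe set lay between -0.12 and -0.025 relative to vehicle under DMF179.2, and did not pass. There the second probe set's mean was higher than vehicle in mesenteric node (9.48 against 9.32) and blood (6.30 against 6.07). It was lower in inguinal node (9.10 against 9.22) and brain (6.22 against 6.29), and none of these passed. The response of Txnip to DMF179.2 differed between tissues (adjusted p = 0.00121 by the limma F test, 0.00248 by the own-variance test).

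**Figure D4:**
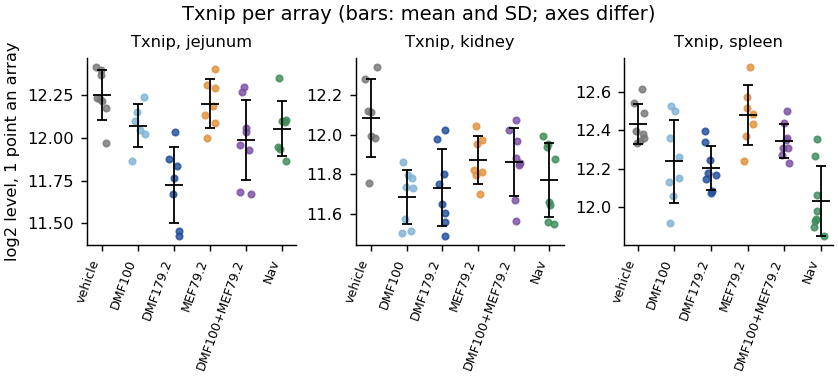
Log2 level of Txnip (main probe set) on every array of jejunum, kidney and spleen by treatment group (horizontal axis), with mean and SD; vertical axes differ. DMF179.2 means lie below vehicle in all 3 tissues, by 0.53, 0.35 and 0.23.

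The higher DMF dose was set against the lower one directly, which answers whether the dose changed the response. It gave 5 called gene and tissue pairs. Srxn1 in mesenteric node was higher at 179.2 than at 100 mg/kg (0.51 ± 0.097 (SE, adjusted p = 0.0171), from 8.11, 8.43 and 8.76 (n = 8) to 8.65, 8.94 and 9.43 (n = 8)), a call lost without DMF179.2 replicate 23 (adjusted p = 0.0639) and when only these groups were fitted (0.121). Txnip in jejunum was lower at the higher dose (-0.35 ± 0.099 (SE, adjusted p = 0.0192)). Probe set 1449097_PM_at of Txnrd2 was higher in jejunum (0.43 ± 0.13 (SE, adjusted p = 0.0264)) and spleen (0.76 ± 0.22 (SE, adjusted p = 0.0467)), and probe set 1451680_PM_at of Srxn1 in spleen (0.29 ± 0.068 (SE, adjusted p = 0.0318)). These 3 calls were lost without the filter (adjusted p = 0.0516, 0.0825 and 0.0506) and when only the groups compared were fitted (0.0523, 0.114 and 0.107). Txnrd1 did not pass between the doses in any tissue: its difference was 0.097 in kidney (95% interval 0.040 to 0.15), 0.079 in jejunum (-0.0075 to 0.17) and 0.22 in blood (0.069 to 0.38). Of all probe sets, the comparison called 13% in jejunum, 0.764% in kidney, 0.114% in mesenteric node, 0.00425% in inguinal node, 2.67% in spleen and 0% in brain and blood, where 2644 and 2412 had an unadjusted limma p under 0.05.

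Adding MEF salts to DMF100 gave 3 called pairs, each in 1 probe set other than the main one: Srxn1 (1419942_PM_at) in kidney (0.16 ± 0.049 (SE, adjusted p = 0.0216)) and mesenteric node (0.39 ± 0.12 (SE, adjusted p = 0.037)), and Txnip (1415997_PM_at) in kidney (0.48 ± 0.14 (SE, adjusted p = 0.0206)). The Srxn1 main probe set gave 0.11 ± 0.048 (SE, adjusted p = 0.104) and 0.29 ± 0.10 (SE, adjusted p = 0.0753), and Txnrd1 0.061 ± 0.028 (SE, adjusted p = 0.139) in kidney. The kidney and mesenteric Srxn1 calls were lost when only these groups were fitted (adjusted p = 0.0637 and 0.0579) and with the hybridisation controls as a covariate (0.119 and 0.0666), the kidney call also with array weights (0.0603) and the mesenteric call without the filter (0.0697). The shares of all probe sets called were 0.230% in jejunum, 13.3% in kidney, 7.36% in mesenteric node, 0.0552% in inguinal node, 0% in spleen, 0.0256% in brain and 0% in blood; in spleen and blood 1489 and 1280 had an unadjusted limma p under 0.05.

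DMF179.2 and the combination differed in 3 pairs, each in 1 probe set other than the main one. Txnip (1415997_PM_at) in kidney was lower under DMF179.2 (-0.44 ± 0.14 (SE, adjusted p = 0.0419)), and in spleen Txnrd2 (1449097_PM_at) and Srxn1 (1451680_PM_at) were higher (0.82 ± 0.22 (SE, adjusted p = 0.0296) and 0.25 ± 0.068 (SE, adjusted p = 0.0306)). The Txnip call was lost without the filter (adjusted p = 0.0814), with centring (0.0585) and when only these groups were fitted (0.0821), the Txnrd2 call without the filter (0.0542) and the Srxn1 call when only these groups were fitted (0.0859). Kidney Txnrd1 and Srxn1 differed by 0.036 (95% interval -0.021 to 0.093) and 0.032 (-0.065 to 0.13) and did not pass. The comparison called 0.00426% of all probe sets in jejunum, 10.2% in kidney, 0.00423% in mesenteric node, 0% in inguinal node, 4.44% in spleen, 0.0470% in brain and 0% in blood, and 1101 and 1618 in inguinal node and blood had an unadjusted limma p under 0.05. These comparisons share arrays with those against vehicle. MEF salts and DMF100 differ in ester and dose and were not tested against each other; in kidney their Txnrd1 differences from vehicle were 0.18 and 0.23, and in jejunum 0.12 and 0.22.

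In the Nav group 13 pairs were called, 5 higher and 8 lower, and Txnrd1 in none. Of the member probe sets, 3 of 15 fell in jejunum and 3 of 14 in spleen. In kidney 4 of 15 rose and 4 fell, and in mesenteric node 6 of 14 rose and 1 fell. No member was called in inguinal node, brain or blood. In kidney, mesenteric node and spleen the members' share was near the share of all probe sets, given below. Srxn1 was lower than vehicle in jejunum (-0.24 ± 0.057 (SE, adjusted p = 0.00912)) and spleen (-0.29 ± 0.11 (SE, adjusted p = 0.0482)), Txnip in kidney (-0.31 ± 0.087 (SE, adjusted p = 0.00318)) and spleen (-0.40 ± 0.075 (SE, adjusted p = 0.00245)), Prdx1 in kidney (-0.084 ± 0.027 (SE, adjusted p = 0.0103)) and mesenteric node (-0.12 ± 0.036 (SE, adjusted p = 0.00461)), and Prdx2 in kidney (-0.13 ± 0.042 (SE, adjusted p = 0.0119)). Txnrd2 was higher in kidney (0.17 ± 0.060 (SE, adjusted p = 0.0176)) and mesenteric node (0.41 ± 0.12 (SE, adjusted p = 0.00401)). The remaining calls were in probe sets other than the main one and went both ways. By mean level, Srxn1 was higher than vehicle in kidney (1451680_PM_at, 8.99 against 8.81) and mesenteric node (1419942_PM_at, 8.07 against 7.76). Txnip (1415997_PM_at) was higher in mesenteric node (9.83 against 9.32) and lower in jejunum (8.31 against 8.77). The shares of all probe sets called were 12.3, 45.3, 46.5, 0.0170, 18, 5.33 and 0.00850% in jejunum, kidney, mesenteric node, inguinal node, spleen, brain and blood. With the hybridisation controls as a covariate 6 pairs were called; those controls were 0.19 higher in kidney and 0.18 higher in mesenteric node than in vehicle, and their part was not tested.

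The other genes of the thioredoxin and glutaredoxin systems, a list of 24, were counted beside them. Under DMF179.2, 8 of 24 rose in kidney, among them Msrb1, a methionine sulfoxide reductase, Glrx and Glrx5, glutaredoxins, and Gsr, glutathione reductase, where 15.7% of all tested probe sets were called. In mesenteric node 6 of 24 rose (7.24% of all called) and in inguinal node 1 of 24 (0.204%). In spleen 5 of 24 rose and 2 fell, and in jejunum 3 of 23 rose and 2 fell, counts no higher than the shares of all probe sets called there (31.3 and 29%). None passed in brain or blood. The median difference was 0.080 in kidney and 0.091 in mesenteric node. Under MEF79.2 members of this list passed only in kidney among the tissues tested, 4 higher and 1 lower (12% of all called).

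Other known NRF2 targets, among them glutathione transferases, the quinone reductase Nqo1 and the ferritin genes, were counted in the same way under DMF179.2. Of those tested, 23 of 28 rose in jejunum (29% of all probe sets called), 26 of 29 in kidney (15.7%), 19 of 26 in mesenteric node (7.24%) and 14 of 26 in spleen, where 2 fell (31.3%). In brain 6 of 24 rose (0.508%), in inguinal node 3 of 25 (0.204%) and in blood 2 of 23 (0.859%). Their median difference was 0.68 in jejunum, 0.54 in kidney and 0.28 in spleen. Under MEF79.2 the counts were 18 of 29 in kidney (12%), 4 of 28 in jejunum (0.0638%) and 1 of 26 in mesenteric node (4.31%). A list of 8 genes covered NADPH, the electron source of thioredoxin reductase. It held enzymes that make NADPH and others of the pentose phosphate pathway that do not. Of these genes, 6 rose in kidney (15.7% of all called), 4 in mesenteric node (7.24%), 3 in jejunum (29%) and 3 in spleen (31.3%) under DMF179.2. In spleen H6pd, an enzyme of the endoplasmic reticulum, fell by 0.22 on the log2 scale (adjusted p = 0.036 by limma). Pgd of the pentose phosphate pathway had the smallest adjusted p of the list in kidney, jejunum and spleen, with log2 differences of 0.94, 0.54 and 0.30, and Taldo1 of the same pathway in mesenteric node, with 0.45. Me1, malic enzyme, changed by more than these in jejunum (1.65), mesenteric node (1.13) and spleen (0.62).

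The genes most like Txnrd1 over the 42 group means, each relative to its tissue mean, were Nqo1 (Pearson r = 0.868), Blvrb (0.780), Gstm1 (0.762), Gstp1 (0.744) and Ninj1 (0.741). Those most like Srxn1 were Zwint (0.792), H2bc22 (0.788), Stom (0.754), Fads1 (0.751) and Abhd5 (0.739). Group means of a tissue are taken relative to the same tissue mean and are not independent, and the values are a description.

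In vehicle arrays 8 of 8 neuronal markers were above the filter level in brain, 6 of 6 kidney tubule markers in kidney and 8 of 8 enterocyte markers in jejunum. The jejunum arrays also had 4 of 4 genes best known from the distal small intestine above that level, with a mean of 9.80. In each lymph node, spleen and blood, 8 of 8 T cell and 8 of 9 B cell markers were above it, and 15 of 16 red cell precursor genes in spleen. Adipocyte markers, which do not define a lymph node, were above it in 6 of 6 cases in each node, and in 5 of 6 in kidney and in jejunum. Array medians spanned 0.046 in blood to 0.17 in mesenteric node on the log2 scale, no less in the latter than some called differences of Txn1 and Prdx1, and each array's median correlation with its group was 0.984 or more. The number of arrays limits the precision, and p-values measure the spread between arrays, which the labels do not tie to separate animals.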

How the data were processed

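The deposited values are log2 expression levels of 45141 probe sets on 308 arrays. Per the submitters' processing notes the tools were RMA and GCRMA under R 2.11.1, with limma 3.4.5; how the authors divided the steps among them is not recorded there. All arrays of a tissue share a lowest value, where 18.39 to 23.27% of values sit, so low levels are compressed. Groups came from the sample titles, because another label gives DMF100 and the combination the same text.

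Within each tissue limma 3.58.1 under R 4.3.3 fitted 1 mean per group over all 6 groups. Probe sets that exceeded the 50th percentile of their tissue in 5 or more arrays were tested, without control probe sets. Their p-values were adjusted together by Benjamini and Hochberg's method and called under 0.05. All members are named, by the probe set with the highest mean; lists name up to 4 called genes by smallest adjusted p. Counts run over 49 pairs of 7 genes and 7 tissues. The members, lists and most tests were chosen with earlier results of these data known.

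Responses were compared between tissues with limma's F test (6 degrees of freedom), as the design was written. On simulated data (16206 probe sets, 50 changed by 1 on the log2 scale in kidney under DMF179.2) it made 0.0 false calls among 50.0 with equal spread in all tissues, but 52.0 among 101.0 with the spread of each tissue, whose largest SD is 2.48 times the smallest in the median probe set. It is therefore unreliable for these data. An F test with each tissue's own variance, from limma's fits per tissue combined in Welch's form, made 6.0 false calls among 55.0 and recovered 49.0 of 50; it was added after this failure and is printed beside the F test. Alternatives covered filters, normalization, centring, variance, array weights, probe set choice, control signal, pairwise fits, left-out arrays and the replicate block. Leaving out single spleen arrays was also added after seeing the data. Replicate numbers run across tissues and were not taken to pair arrays.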

Additional observations from a re-analysis of the deposited data

Results flagged for a closer look

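Responses that differed between tissues are given with 2 adjusted p-values, from the limma F test with 1 variance over tissues and from the F test with each tissue's own variance. Under DMF179.2 both passed for Txnrd1 (2.75e-05 and 1.31e-06), Srxn1 (1.51e-06 and 1.66e-15), Txnip (0.00121 and 0.00248) and Prdx1 (0.00217 and 0.0115). The F test alone passed for Txnrd2 (0.0147 and 0.0836) and Prdx2 (0.00529 and 0.106). Under DMF100 both passed for Srxn1 (0.00543 and 0.000428). Under the combination both passed for Txnrd1 (0.000522 and 1.02e-05) and Srxn1 (3.95e-05 and 6.02e-11), and the F test alone for Prdx1 (0.041 and 0.0901). Under MEF79.2 the own-variance test alone passed for Srxn1 (0.748 and 0.0363) and Txn1 (0.151 and 0.00342).

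Single arrays stood far from their group in 2 of 66 groups checked, where chance flags about 1 in 20. The Txnrd1 level of DMF179.2 replicate 17 in spleen was 11.52 on the log2 scale, with the next array at 11.35. That of vehicle replicate 8 in jejunum was 12.45, with the next at 12.59.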

How the results depend on the processing

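Of 83 called member results outside Nav, 50 kept their call under every setting that tested them, 33 lost it under at least 1, and none changed direction. The count of called pairs under DMF179.2 versus vehicle stayed within 1.5 times 25 under all. Fitting only the groups compared gave 4 pairs for DMF100, 4 for the combination, 1 for DMF179.2 against DMF100 and 1 for the combination against DMF100. Array weights gave 4 for MEF79.2, 12 for the combination, 10 for DMF179.2 against DMF100 and 5 for DMF179.2 against the combination. With 1 probe set per gene or the averaged probe sets of a gene, the counts were 8 and 6 for Nav, 2 and 3 for DMF179.2 against DMF100, 0 and 1 for the combination against DMF100, and 0 and 0 for DMF179.2 against the combination. The hybridisation controls as a covariate gave 6 for Nav and 1 for the combination against DMF100. No filter and the 70th percentile filter gave 2 and 3 for DMF179.2 against DMF100, and 1 and 1 for DMF179.2 against the combination. The higher filter tests fewer probe sets; the other causes were not tested. Leaving out 1 spleen array gave 24 to 25 pairs for DMF179.2. Single arrays of the small MEF79.2 and Nav groups in blood were also left out; no member was called in blood under either, so those counts could not fall and show nothing about the calls in other tissues.

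Member probe sets whose response differed between tissues by the F test numbered 2 for DMF100, 10 for DMF179.2, 0 for MEF79.2 and 5 for the combination. The own-variance test gave 3, 7, 4 and 4. The 70th percentile filter gave 1, 6 and 3 for DMF100, DMF179.2 and the combination. Array weights gave 5 for DMF100 and 5 for MEF79.2, and leaving out the array of lowest correlation gave 1 for MEF79.2. With the replicate block, the number shared by tissues as a random block, the counts were 3, 10, 0 and 5 in the order DMF100, DMF179.2, MEF79.2, combination; the block also keeps 1 variance over tissues. Of 866 pairs of arrays with the same number in 2 tissues, 609 had a correlation of their deviations over 0.1. The rule for taking numbers as pairing asked for every pair. Noisy arrays can miss it even when paired, so the rule cannot decide whether a number is an animal. The tests between tissues without the block took all arrays as independent. In 21 of 21 pairs of tissues the same-number median (0.059 to 0.28) was above that of other numbers (-0.052 to -0.0075), a hint from the data and not from the labels.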
